A study of Mus musculus with 8 samples.

Results

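The strong H3K4me3 regions listed at 5M only are 514 of 54585 merged H3K4me3 regions in mouse germline stem cells. To find them, peaks of the 4 H3K4me3 lists that shared at least 1 bp were merged, and regions with a peak in both lists of cells grown for about 5 months (5M) and in neither list of cells grown for about 60 months (60M) were taken. Each peak was then given its percentile by maximum immunoprecipitation signal within its own list, and regions with a mean percentile above 50 over the 5M lists were kept. The regions were thus chosen by their H3K4me3 signal at 5M and by having no call at 60M, and both are given here as a description, without a test.

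Germline stem cells are the cultured form of spermatogonial stem cells, and chromatin immunoprecipitation sequencing was done on cells at both culture ages, with 2 libraries for each of 2 marks and each age. The 60M and the 5M cells alike were derived from testes of the Green mouse line, C57BL/6 Tg14(act-EGFP)OsbY01, on a DBA/2 background. All groups therefore carry the same act-EGFP transgene, and the labels call them wild type. Both ages were grown with FGF2, GDNF and fetal bovine serum. The groups used here were H3K4me3 at 60M, H3K4me3 at 5M, H3K27me3 at 60M and H3K27me3 at 5M. Whether both libraries of a group were made from separate cultures is not in the labels, and their spread may be technical only.

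H3K4me3 is placed on nucleosomes by COMPASS and MLL-type methyltransferases and marks the start sites of active genes as well as genes held ready for use. H3K27me3 is placed by Polycomb repressive complex 2 and marks silenced genes, and germ cells and stem cells hold both marks together at many developmental genes. A region that is listed for H3K4me3 at one age and not at the other can therefore be examined for H3K27me3, which the choice of the regions did not use.

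Positions are given as the authors' lists give them, in bins of 1 kb. They follow the chromosome lengths of mm9: 1331 peaks over all lists end beyond the mm10 chromosomes, which the submitters' processing notes name, and 2 peaks end beyond those of mm9, none of them in the strong 5M-only regions. No mm9 genome or annotation was used here, so no gene, exon or sequence is assigned to a region. For the same reason the cell type label was not checked against marker genes. The lists give no read totals, so depth is unknown, and a peak that is not listed was not called, which does not show that the mark was absent.

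Strong 5M regions without a 60M call were uncommon, and 510 of the 514 lay between the 50th and 75th percentile. Of 23170 regions in both 5M lists with a mean percentile above 50, 22172 (95.7%) were listed in both 60M lists, 484 (2.09%) in 1 of them and 514 (2.22%, exact 95% interval 2.03 to 2.42%) in neither. The background for a 5M-only call over all merged regions, strong and weak, was 10.1%. With the ages exchanged, 24 of 21015 regions above the 50th percentile at 60M were in neither 5M list, a share of 0.114%. The background for a 60M-only call over all merged regions was 4.46%. The cut is set within each list and need not be alike at both ages. Median signals were 183 and 179.4 in the 5M lists and 215.4 and 238.4 in the 60M lists, on an unstated scale. Where a peak of the other age had to cover at least 0.5 of the region's length, the counts were 581 strong 5M-only and 137 strong 60M-only regions. Single libraries moved them too: without 60M library 1 there were 805 strong 5M-only regions, and the 24 became 69 without 60M library 2 and 42 without 5M library 1.

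The share of strong 5M regions that was missing from both 60M lists became smaller with each step of strength. It was 8.44% (193 of 2287, exact 95% interval 7.33 to 9.65%) between the 50th and 55th percentile and 6.18% (142 of 2296) between the 55th and 60th. Between the 60th and 65th it was 3.49% (82 of 2348), between the 65th and 70th 2.87% (66 of 2297) and between the 70th and 75th 1.18% (27 of 2291). Only 4 of the 514 regions lay above the 75th percentile. Among the 2310 regions between the 85th and 90th percentile and the 4675 above the 90th, 0 were missing, which allows shares of up to 0.130% and 0.0642%.

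**Figure D1:**
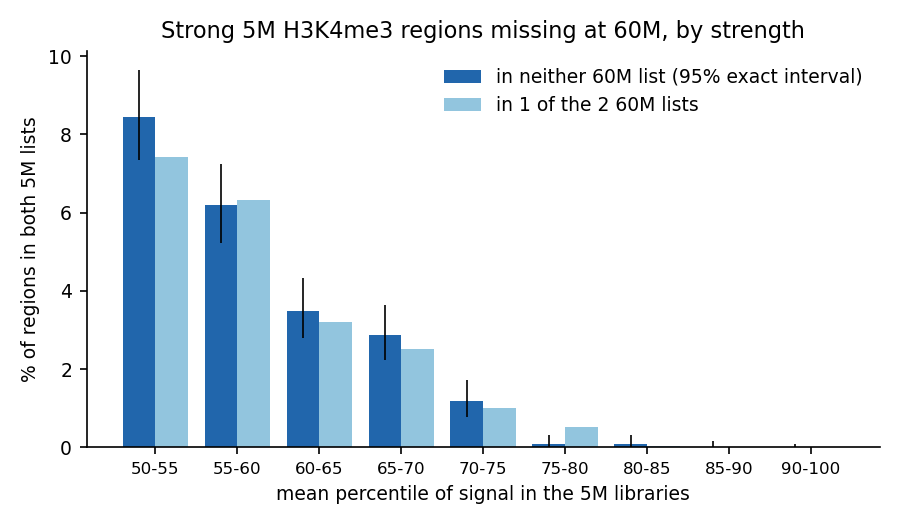
Percent of H3K4me3 regions in both 5M lists (y axis) that were in neither 60M list (dark bars, with exact 95% intervals) or in 1 of the 2 60M lists (pale bars), by mean percentile of signal at 5M (x axis, classes of 5 percentiles up to 90 and 1 of 10). The share in neither list is 8.44% between the 50th and 55th percentile and 0 above the 85th.

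Few strong 5M regions stood among the weakest peaks at 60M. Of the 22172 in both 60M lists, 10 had a mean 60M percentile under 10, 48 (0.216%) under 20, 195 (0.879%) under 30 and 559 (2.52%) under 40, beside the 514 with no 60M peak. Between the 50th and 55th percentile at 5M, regions in both 60M lists had a median 60M percentile of 49.2 (lowest 3.97, highest 73.1). Regions in 1 60M list spread over a wide range of it. The 290 listed in 60M library 1 alone had a median percentile of 40.2 there (lowest 0.514, highest 83.1), with 90 above 50. The 194 listed in 60M library 2 alone had a median of 33.2 (lowest 1.74, highest 67.2), with 31 above 50. The lowest signals in the 60M lists were 9.3 and 9.2. The weakest signal of any strong 5M-only region, 138.8 in 5M library 1, would exceed 34.5% and 31.0% of the peaks of 60M libraries 1 and 2. The scaling of the signal is not stated in these sources, so these last figures set lists side by side without a common scale. Whether the 514 regions kept a weak signal at 60M was not tested.

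Pairs of lists show how often a strong region of one had no peak in another, first within an age. Of 21811 regions above the 50th percentile in 60M library 1, 175 (0.802%) were missing from 60M library 2. In the reverse direction 41 of 20770 (0.197%) were missing. Among 22855 regions above the 50th percentile in 5M library 1, 0 were missing from 5M library 2, and 4 of 23612 (0.0169%) in the reverse direction. The 5M replicates thus shared nearly every strong region, and the 60M replicates shared fewer.

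Across ages the same shares hold the calls by which the 514 regions were chosen, so they are a description. For 5M library 1, 583 (2.55%) were missing from 60M library 1 and 679 (2.97%) from 60M library 2. For 5M library 2, 890 (3.77%) and 989 (4.19%) were missing. Strong regions of the 60M libraries were missing from 5M lists in shares of 0.130 to 0.445%, all below the larger of the shares between the 60M replicates. The 60M lists are also shorter, with 43699 and 41637 peaks against 45933 and 47415 at 5M. The part of list length in the 514 was not tested.

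**Figure D2:**
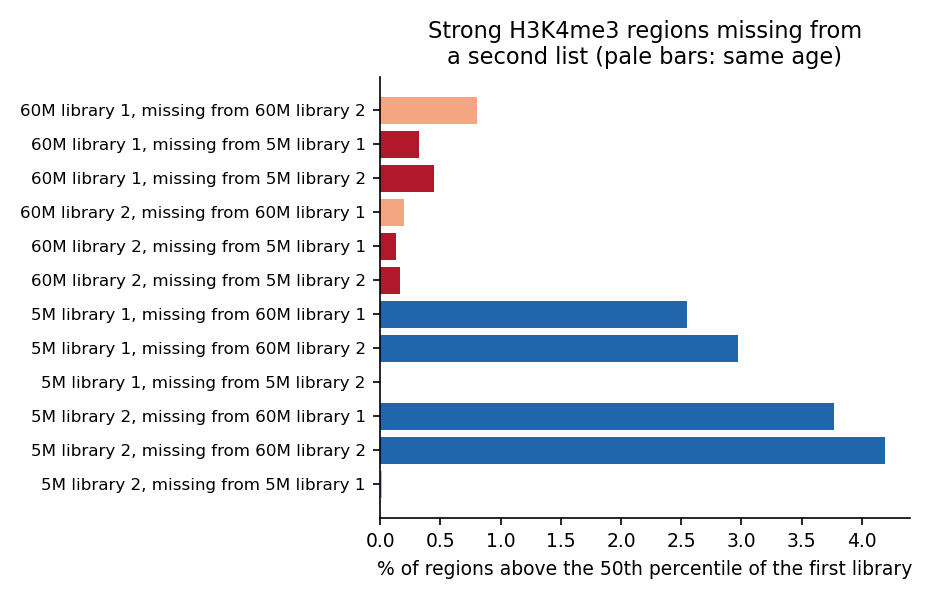
Percent of H3K4me3 regions above the 50th percentile of one library that have no peak in a second library (x axis), for each ordered pair of the 4 libraries (y axis). Red bars start from 60M libraries and blue bars from 5M libraries, and pale bars join libraries of one age. The 4 bars from 5M to 60M lists reach 2.55 to 4.19%, against at most 0.802% for any other pair.

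In the 5M libraries the 514 regions had moderate signal. The maximum signal ran from 138.8 to 463.8 in 5M library 1, with a median of 209.8, and from 166.8 to 482.9 in 5M library 2, with a median of 243.1. Each maximum is the value the authors gave to a peak, and it serves here only to rank peaks within a list. Regions in all 4 lists between the 50th and 75th percentile at 5M, the band that holds 510 of the 514, had medians of 268 and 268.3. All 514 regions reached the ceiling of the −log10 p against the control, 15.95, in both 5M lists. So did 99.98% of the regions in all 4 lists in that band, in each 5M list. The −log10 p of the immunoprecipitate alone, which has no such ceiling, had medians of 126 and 153 at the 514 regions. At the regions in all 4 lists in that band the medians were higher, 184.8 and 183.1.

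The regions stood higher in 5M library 2 than in 5M library 1. The percentile was higher in library 2 at 460 of 514 regions (89.5%), with a median difference, library 2 minus library 1, of 4.62 percentiles and a range of -10.1 to 27.7. In the same strength band, 66.3% of the regions in all 4 lists were higher in library 2, with a median difference of 0.94. For the 484 regions in 1 60M list the share was 77.5%. Both 5M libraries had a percentile above 50 at 390 of the 514 regions, library 2 alone at 117 and library 1 alone at 7. The percentiles of the 2 libraries had a Pearson correlation of 0.764 across the 514 regions, as a description over a range that the threshold limits. Part of the count thus rests on library 2: without it, 410 regions met the rule with library 1 deciding alone, and 397 of them were among the 514.

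**Figure D3:**
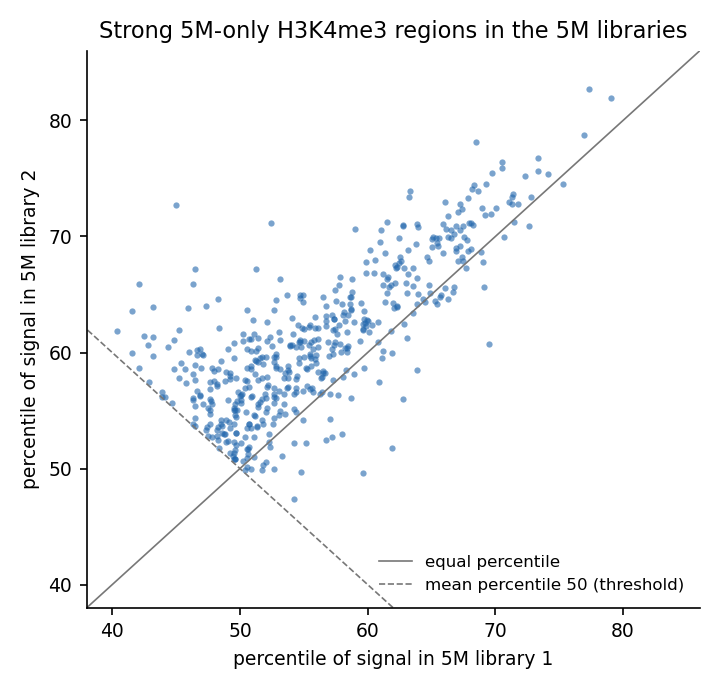
Percentile of signal of each of the 514 regions in 5M library 1 (x axis) and 5M library 2 (y axis). The solid line marks equal percentiles and the dashed line the threshold of a mean of 50, and 460 of the 514 points lie above the solid line.

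The peak positions agreed between the 5M libraries. The summit fell in the same 1 kb bin at 464 regions (90.3%), in the next bin at 48 and 2 bins away at 2. Strong regions in all 4 lists had the same summit bin in 94.6% of cases. In 5M library 1, 512 of the 514 regions consisted of 1 peak, and in 5M library 2 all 514 did.

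Strong 5M-only regions were narrow. The covered length in 5M library 1 was 1 kb at 125 regions (24.3%), 2 kb at 336 (65.4%), 3 kb at 48 and 4 kb or more at 5. In 5M library 2 it was 1 kb at 85 regions (16.5%), 2 kb at 330 (64.2%), 3 kb at 93 and 4 kb or more at 6. The median was 2 kb in both. At like strength they covered less than regions in all 4 lists: between the 50th and 55th percentile the means were 1.75 and 1.92 kb in 5M libraries 1 and 2, against 1.99 and 2.04 kb, and between the 65th and 70th they were 2.03 and 2.20 kb, against 2.37 and 2.47 kb. A width in the 5M lists is no measure independent of the choice, so this difference was not tested.

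The highest-ranked region lay on chromosome 4 (139170000 to 139172999). It had no peak in either 60M list, against signal maxima of 463.8 and 473.1 in 5M libraries 1 and 2, and covered 3 kb in both 5M lists. The nearest 60M peak lay 5 kb away and stood at percentile 67.3 of 60M library 1. Next came a 3 kb region on chromosome 16 (90010000 to 90012999) with 5M maxima of 440.4 and 482.9. Here the nearest peaks of the 60M libraries lay 17 and 44 kb away, so a wide stretch was free of 60M calls. The third region, on chromosome 10 (115550000 to 115551999), had maxima of 433.5 and 434.1 at 5M and a gap of 15 kb to either 60M list. These 3 and the fourth, on chromosome 15 (89165000 to 89167999; 385.5 and 409.6), are the 4 regions above the 75th percentile.

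Several of the next-ranked regions lay beside strong 60M peaks. On chromosome 4 (116674000 to 116676999) the 5M maxima were 350.1 and 398.6, and a 60M peak at percentile 93 lay 4 kb away. On chromosome 15 (89377000 to 89379999) they were 327.1 and 426.7, and a 60M peak at percentile 86.9 lay 6 kb away. The region on chromosome 3 (88991000 to 88992999), with maxima of 350 and 404.6, had a 60M peak at percentile 79.9 at a distance of 3 kb, and that on chromosome 13 (114389000 to 114391999), with 379.1 and 368.2, one at percentile 76.2, also at 3 kb. In these cases the lists kept a strong H3K4me3 peak within a few kb of a site without a call at 60M.

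The rest of the 12 highest varied in their distance to 60M peaks. The region on chromosome 14 (66117000 to 66119999; 5M maxima 372.1 and 391.3) lay 72 kb from the nearest 60M peak, and that on chromosome 19 (40399000 to 40401999; 395.6 and 393.2) 24 kb. The region on chromosome 7 (6663000 to 6664999; 385.5 and 395.6) lay 13 kb from a 60M peak at percentile 54.5. On chromosome 4 (148938000 to 148939999) the maxima were 412.9 and 381.4 at 5M, and the nearest 60M peak, at percentile 9.06 of 60M library 2, lay 2 kb away. The nearest peak of 60M library 1 and the nearest region of all 4 lists lay 6 kb from it. None of the 12 overlapped an H3K27me3 peak in any of the 4 H3K27me3 lists.

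The widest region was unlike the rest in form. On chromosome 10 (61290000 to 61297999) it covered 7 and 8 kb in the 5M lists at moderate maxima of 188.5 and 261.6, and the nearest 60M peaks lay 21 kb away in both lists. A 5 kb region on chromosome 3 (96205000 to 96209999) had maxima of 257.1 and 287.6. The other 3 of the 5 widest covered 3 or 4 kb, on chromosomes 15 (97288000 to 97291999), 17 (45800000 to 45803999) and 3 (153306000 to 153309999). Their merged length was 4 kb, and further regions tied with them at that length and are not named.

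The largest differences between the 5M libraries all ran towards library 2. On chromosome 7 (52262000 to 52263999) the maximum was 158.5 in 5M library 1 and 359.4 in 5M library 2, a difference of 27.7 percentiles. On chromosome 1 (174299000 to 174300999) it was 145.9 and 288.3, and on chromosome 9 (100884000 to 100886999) 143.5 and 267.6. Chromosome 11 (5616000 to 5617999) had 138.8 and 254.3, and chromosome 15 (12762000 to 12764999) had 165.6 and 300.1. All 5 fell below the 50th percentile in library 1 and are members through library 2.

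Values changed little across the threshold. Just inside it were regions on chromosome 11 (66960000 to 66961999), with 5M maxima of 153.8 and 214.9 and a mean percentile of 50.05, and on chromosome 16 (55905000 to 55906999), with 164.8 and 200.8 and also 50.05. The other 3 of the 5 lowest members were on chromosomes 10, 5 and 11, with mean percentiles of 50.08 to 50.14. Just outside were regions on chromosome 10 (68732000 to 68733999), with 177.4 and 184.6 and a mean percentile of 49.94, and on chromosome 2 (132618000 to 132619999), with 168 and 194.9 and 49.92. The next 3, on chromosomes 4, 4 and 7, had mean percentiles of 49.85 to 49.90. The 4995 weak 5M-only regions below the threshold had median signals of 64.7 and 81.5.

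Most of the 514 regions lay close to a 60M H3K4me3 peak without touching one. The median distance to the nearest peak of either 60M list was 8.5 kb (quartiles 4 and 17 kb), against 14 kb (6 and 34 kb) for the weak 5M-only regions. A 60M peak lay within 5 kb of 170 regions (33.1%, exact 95% interval from counting regions 29.0 to 37.3%) and within 10 kb of 300 (58.4%). Of those 300 neighbouring peaks, 178 (59.3%) stood above the 50th percentile of their list. Another region of both 60M lists lay within 10 kb of 54.1% of the 514 regions (exact 95% interval 49.7 to 58.5%), against 46.3% (45.7 to 47.0%) of the 22172 strong regions in all 4 lists. The share was thus somewhat higher for the strong 5M-only regions. So was the share within 10 kb of another region of both 5M lists, 57.2% against 49.2%. The sets differ in strength, with median 5M percentiles of 57.1 and 76.2, and the part of strength was not tested.

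Few of the regions adjoined a 60M peak: 3 had one in the next 1 kb bin. They were chosen for this after their values were seen and lay on chromosome 3 (132272000 to 132273999), with 5M maxima of 217.6 and 256.4, on chromosome 15 (99750000 to 99751999), with 238.1 and 214.2, and on chromosome 14 (55329000 to 55331999), with 163.2 and 269.8. At the other end, a region on chromosome 14 (12810000 to 12811999), with 5M maxima of 208 and 208.9, lay 296 kb from any 60M peak. When peaks in adjoining bins were merged, 511 regions met the rule, and when peaks with up to 1 kb between them were merged, 475 did.

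**Figure D4:**
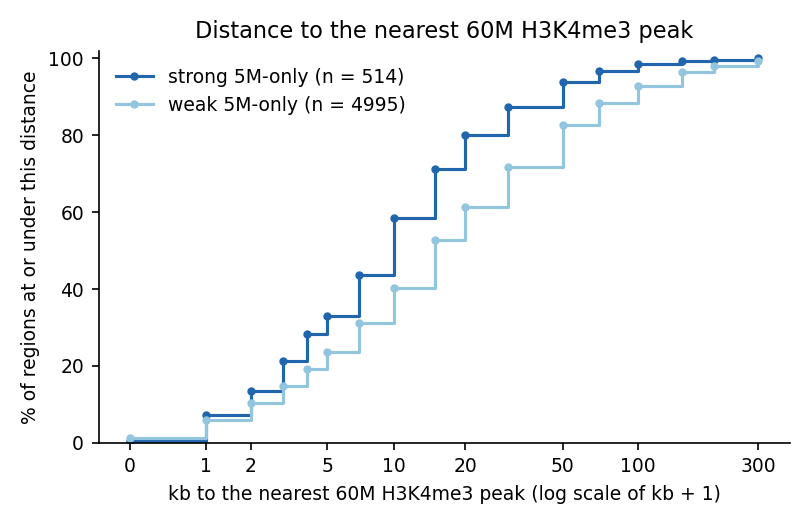
Percent of regions (y axis) with a 60M H3K4me3 peak at or under a given distance in kb (x axis, log scale of kb + 1), for the strong 5M-only regions (dark, n = 514) and the weak 5M-only regions (pale, n = 4995). At 10 kb the lines stand at 58.4% and 40.3%.

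Other regions near the 514 were examined with and without a 60M call. Of 405 regions in both 5M lists that lay within 10 kb of a strong 5M-only region, 41 (10.1%, exact 95% interval 7.36 to 13.5%) were in neither 60M list, against 11.5% (11.2 to 11.8%) of the other 43066. All 41 were weak 5M-only regions, since strong ones are themselves among the 514. The 405 had a median 5M percentile of 62.1, against 52.2 for the others, so strength was unlike. Among the weak regions of both 5M lists alone, 41 of 146 (28.1%, 21.0 to 36.1%) within 10 kb were in neither 60M list. That compares with 24.0% (23.4 to 24.6%) of those farther away. Within 5 kb the share was 21.1% (15 of 71, 12.3 to 32.4%), also against 24.0%. Regions in all 4 lists that lay within 10 kb of a strong 5M-only region numbered 337, and their median change in mean percentile, 60M minus 5M, was -1.57, against -1.52 for the other 34892. Of the 337, 120 (35.6%) had a higher mean percentile at 60M, against 36.2% of the others. For single pairs of libraries the median changes near the regions were -0.46 to -2.44 and elsewhere -0.64 to -2.27. Within 5 kb, 148 regions had a median change of -1.15. The last medians cover only neighbours that were listed at both ages, and they differed between near and far regions by less than between library pairs.

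Most of the regions lay far from each other, but no equal number of other strong 5M regions was set beside them. The median distance from one of the 514 to the next nearest was 699.5 kb, and 461 had no other within 50 kb. The other 53 formed 25 groups of 2 and 1 group of 3, on chromosome 2 (168817000 to 168881999), with 2 regions of all 4 lists between its members. By summed percentile the next groups were 4 pairs. One lay on chromosome 2 (156846000 to 156866999) and one on chromosome 7 (6629000 to 6664999), while the others were found on chromosome 13 (46847000 to 46894999) and on chromosome 11 (107900000 to 107930999). Along the strong 5M regions, no more than 2 of them followed each other, in 21 runs of 2 and 472 runs of 1. With the weak 5M-only regions included, along all regions of both 5M lists, the longest runs without a 60M call held 6 regions. The densest windows of 1 Mb held 5 members each, among 22 strong 5M regions on chromosome 11 (107000000 to 107999999), 24 on chromosome 4 (141000000 to 141999999) and 38 on chromosome 5 (123000000 to 123999999). These are shares of 22.7%, 20.8% and 13.2%, beside 2.22% over all strong 5M regions, in windows picked for their count.

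All 20 chromosomes held at least 2 of the regions. As a share of the strong 5M regions of a chromosome, they made up 3.60% on chromosome 10 (47 of 1304, exact 95% interval 2.66 to 4.76%), 3.15% on chromosome 14 and 3.09% on chromosome 4. The lowest autosomal shares were 1.38% on chromosome 7 (21 of 1527, 0.853 to 2.09%) and 1.62% on chromosome 19. On the X chromosome 2 of 556 were members (0.360%, 0.0436 to 1.29%). Both were chosen for mention after their values were seen: one at 61426000 to 61428999, with 5M maxima of 205.8 and 245.3 and 99 kb from any 60M peak, and one at 165740000 to 165741999, with 205.1 and 228.3. The intervals count regions of these 4 libraries and not cultures.

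H3K27me3 was rare on the strong 5M-only regions at both ages. A peak overlapped 13 and 13 of the 514 regions in 60M libraries 1 and 2 (2.53% each), and 9 (1.75%) and 13 (2.53%) in 5M libraries 1 and 2. The mean shares were 2.53 ± 0% at 60M and 2.14 ± 0.550% at 5M (SD, n = 2), a difference of 0.389 percentage points that was smaller than the spread at 5M (exact permutation test over libraries, two-sided, p = 1). With 2 libraries against 2, the exact permutation test cannot go below p = 0.333. The direction of so small a difference was not stable: it was -1.85 percentage points, 3.79% at 60M and 5.64% at 5M, when H3K27me3 peaks within 1 kb also counted, and -0.149 without H3K4me3 5M library 1.

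Strong regions that were also listed at 60M carried H3K27me3 more often. Regions in all 4 H3K4me3 lists between the 50th and 75th percentile at 5M had an H3K27me3 peak in 10.1% and 9.69% of cases in the 60M libraries and in 9.70% and 12.5% in the 5M libraries. In each of the 4 H3K27me3 libraries the exact 95% interval of the strong 5M-only regions, at most 4.29%, lay below that of these regions, at least 9.13%. The 514 regions stood lower within this band, so the shares were also set side by side in classes of 5 percentiles, and in each of the 5 classes and each of the 4 libraries the strong 5M-only regions had the lower share. Between the 50th and 55th percentile they had 5.70% and 2.59% at 60M and 2.59% and 4.15% at 5M (n = 193), against 9.72% and 9.51% at 60M and 8.99% and 11.8% at 5M (n = 1924). In that class the intervals of 60M library 1 overlapped, 2.88 to 9.97% against 8.43 to 11.1%. Those of 60M library 2 overlapped between the 60th and 65th percentile (n = 82 strong 5M-only regions) and between the 65th and 70th (n = 66). Between the 70th and 75th (n = 27) the intervals overlapped in 60M libraries 1 and 2 and in 5M library 1. The 514 regions were shorter, with a mean merged length of 2.07 kb against 2.58 kb, and the part of length in the difference was not tested. The 484 regions in 1 60M list resembled the 514, with 2.69% and 2.07% at 60M and 2.27% in both libraries at 5M. Intervals and limits cover counting error only.

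**Figure D5:**
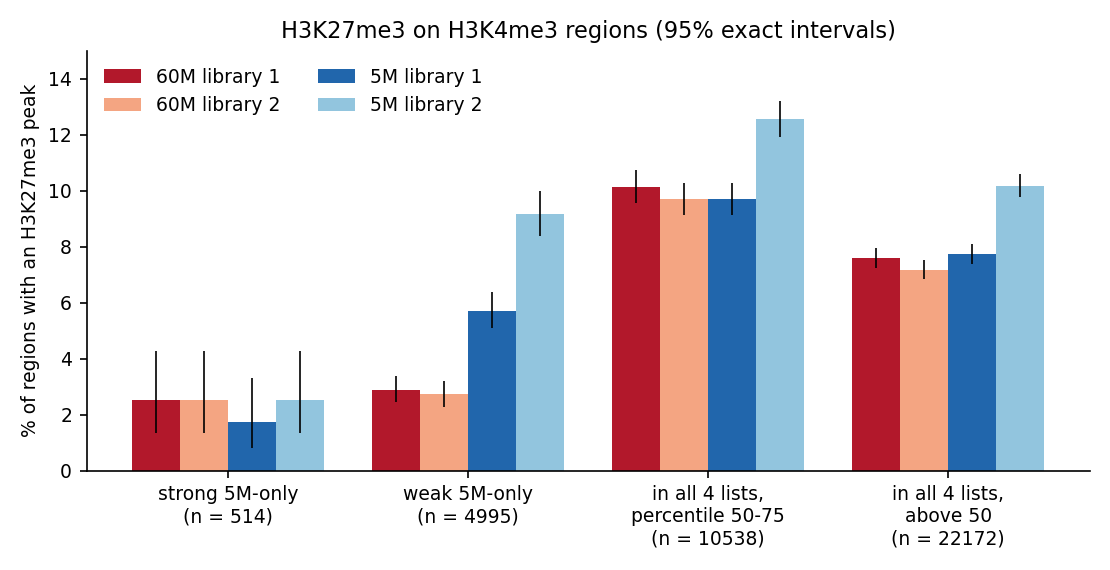
Percent of H3K4me3 regions with an overlapping H3K27me3 peak (y axis), in each H3K27me3 library (bars, with exact 95% intervals), for the strong 5M-only regions, the weak 5M-only regions and the regions in all 4 H3K4me3 lists with a 5M percentile of 50 to 75 or of any value above 50 (x axis). The strong 5M-only regions lie at 1.75 to 2.53% in every library, and the weak ones at 2.72 to 2.88% at 60M and 5.71 to 9.17% at 5M.

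On weak 5M-only regions H3K27me3 was found at 2.80 ± 0.113% at 60M and 7.44 ± 2.45% at 5M (SD, n = 2), and neither 60M library reached either 5M library (exact permutation test, p = 0.333, the smallest possible). On the strong regions the ages overlapped. The difference between strong and weak 5M-only regions was not tested, since the H3K27me3 libraries are the same for both.

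Of the 514 regions, 487 (94.7%) had no H3K27me3 peak in any library, against a background of 87.8% of all 54585 regions. H3K27me3 was listed in both libraries at 60M and in none at 5M at 3 regions (0.584%), against a background of 0.302%. The reverse, both at 5M and none at 60M, was also found at 3, against a background of 1.48%. H3K27me3 in all 4 libraries was found at 4 (0.778%), against 3.61%. Regions in all 4 H3K4me3 lists between the 50th and 75th percentile at 5M had these patterns in 0.588% (62 of 10538), 1.14% and 6.00% of cases. The share with H3K27me3 at 60M only was thus near that of the 514. At the other 17 the replicates of an age disagreed, 15 of them with a peak in 1 library.

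The strongest H3K27me3 peaks at 60M were on the region on chromosome 1 (36330000 to 36330999). There H3K4me3 had no peak at 60M, against maxima of 245.2 and 177.2 in 5M libraries 1 and 2. H3K27me3 had peaks of 9 and 7 kb reaching 114 and 110 in the 60M libraries, at percentiles 98.6 and 98.9, against no peak at 5M. A 60M H3K4me3 peak at percentile 66.5 lay 3 kb away. The region was one of 54 with a higher H3K4me3 percentile in 5M library 1 (59.6) than in 5M library 2 (49.6). The other 2 regions with H3K27me3 at 60M only were on chromosome 9 (91272000 to 91273999), with maxima of 65.7 and 55 at 60M, and chromosome 12 (112246000 to 112246999), with 49.4 and 64.4.

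Where H3K27me3 was listed at 5M only, neither mark had a listed peak at 60M. These regions lay on chromosome 17 (23746000 to 23747999), with no H3K27me3 peak at 60M against maxima of 47.5 and 71.9 at 5M, on chromosome 8 (3495000 to 3496999), with 53.9 and 56.2 at 5M, and on chromosome 6 (48569000 to 48570999), with 33.4 and 41. In all 4 libraries H3K27me3 was listed on chromosome 15 (80041000 to 80042999), with maxima of 54.7 and 56.8 at 60M against 81.5 and 97.2 at 5M. On chromosome 7 (112902000 to 112903999) the widest overlapping peak was 2 and 1 kb at 60M against 7 kb in both 5M libraries. The last 2 were on chromosome 5 (19010000 to 19012999) and chromosome 1 (34780000 to 34781999), and here too the H3K27me3 peaks were narrower at 60M (2 and 2 kb, and 1 and 2 kb) than at 5M (3 and 4 kb, and 4 and 5 kb).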

How the data were processed

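H3K4me3 and H3K27me3 were measured by chromatin immunoprecipitation sequencing in 8 libraries, 2 per mark and age. Chromatin was sonicated with or without micrococcal nuclease, per the labels' protocols. The tools named in the submitters' processing notes are Bowtie 1.1.2 and CASAVA 1.8.4; no source used here names the peak caller. One list was deposited by the authors for each library, not pooled, with a maximum signal per peak, 2 columns of −log10 p-values, a q-value (at most 0.00097) and a width, per the file headers. Chromosome lengths came from GenomeInfoDb 1.38.1.

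Calculations used Python 3.11.15, numpy 2.4.6, pandas 2.3.3, scipy 1.17.1 and matplotlib 3.10.9. Signal was turned into percentiles within each list. A distance of 0 kb means adjoining bins. Shares have exact binomial (Clopper-Pearson) 95% intervals, and a count of 0 allows up to 3 counts. The code was tested on simulated lists. Regions and lists were chosen with earlier results of these data known. Named regions are the 12 with the highest mean percentile and the 5 widest, with further ties at 4 kb left out. The 5 on each side of the threshold are named, as are the 5 with the largest difference between 5M libraries. So are the 5 largest groups within 50 kb. Also named are those with H3K27me3 in both libraries of 1 age and none of the other, or in all 4 libraries. Gene names and marker lists were planned for an annotation of the files' build and were not used here.
Runs of strong regions, neighbours without regard to their 60M call and H3K27me3 shares by strength class were counted after the other results had been seen.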

Additional observations from a re-analysis of the deposited data

How the results depend on the processing

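The number of strong 5M-only regions stayed above that of strong 60M-only regions in all 13 alternatives, with percentiles always taken within each list. The counts were 514 against 24 as reported, 1045 against 91 above the 40th percentile, 179 against 4 above the 60th and 4 against 1 above the 75th. They were 390 against 14 with each library above 50, and 581 against 137 where a peak of the other age had to cover 0.5 of the region's length. They were 319 against 24 with lists cut to equal length and 118 against 11 with only peaks at the ceiling of −log10 p. Both settings drop weak peaks and rank the rest anew, which raises the threshold, so neither tests list length or significance. With 1 H3K4me3 library left out they ran from 410 (without 5M library 2) to 805 (without 60M library 1) against 25 to 69, and the age of the omitted library was then read from 1 list. All 12 highest-ranked regions remained in every setting except the 75th percentile, where 4 did. In several settings this was fixed in advance. The 40th percentile, the cover rule and leaving out a 60M library can only add regions, and all 12 have a mean percentile above 60. The share within 5 kb of a 60M peak moved from 33.1% to 25% above the 75th percentile, 26.3% with ceiling peaks only, 40.8% with that cover and 27.8% after merging peaks up to 1 kb apart. The median covered length of 2 kb became 3 kb above the 75th percentile. The share with another member within 50 kb, 10.3%, became 15.3% above the 40th percentile, 2.23% above the 60th, 0 above the 75th and 3.39% with ceiling peaks only; it was 3.89% within 20 kb and 15.6% within 100 kb. Looser thresholds keep more regions, so such shares move by construction. The difference in H3K27me3 share, 60M minus 5M, of 0.389 percentage points became -0.574 above the 40th percentile, 0 above the 75th and -1.85 with H3K27me3 peaks within 1 kb; with 1 library left out it ran from -0.149 to 0.778. The cause of these reversals was not tested. No paired analysis was possible because the calls come from no fitted test and need both libraries of an age. Depth is unknown, so a missing call cannot be told from a weak one.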
